A study of Mus musculus with 6 samples.

Results

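The genes described here were those of the constitutive proteasome, chosen by name from the deposited expression table. They were the protein-coding genes whose symbols start with Psma, Psmb, Psmc, Psmd or Psme and a digit, without the 3 inducible catalytic subunits Psmb8, Psmb9 and Psmb10. The rule found 42 of the 54532 genes of the table, and 40 of them were expressed highly enough to be tested. RNA was sequenced from mouse T cells co-cultured with cells of the mouse ovarian cancer line ID8, to compare T cells that had met cisplatin-treated tumour cells with T cells that had met untreated ones. In the cisplatin group (3 libraries) the ID8 cells had been pretreated with 40 µM cisplatin, a platinum drug that crosslinks DNA, and in the control group (3 libraries, named WT in the titles) with PBS. The T cells of both groups came from spleens of C57BL/6 mice through a pan T-cell isolation kit, and were kept with IL-2 and activated with beads against CD3 and CD28. Such a kit yields CD4 and CD8 T cells together, and both groups had been activated before they met the tumour cells. The labels do not say whether the 3 libraries of a group came from separate mice or cultures. The paper speaks of biological replicates and of independent samples, 3 per group, without naming separate mice or cultures. The p-values therefore measure only the spread between these libraries, which may be technical.

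The proteasome degrades proteins that carry a ubiquitin chain. Its barrel, the 20S core, is built of outer rings of alpha subunits that gate the entrance and inner rings of beta subunits, of which Psmb5, Psmb6 and Psmb7 carry the active sites. The 19S cap binds and unfolds the substrate: its base holds a ring of Psmc ATPases and its lid a deubiquitinating enzyme, while the Psme activators can dock on the core in place of the cap. In activated lymphocytes the inducible subunits Psmb8, Psmb9 and Psmb10 can replace the constitutive catalytic subunits, giving the immunoproteasome, which is known for making peptides for MHC class I.

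The constitutive proteasome genes changed in both directions and by small amounts. Of the 40 genes tested, 12 rose and 16 fell with cisplatin-treated ID8 cells at an adjusted p-value under 0.05 (limma, Benjamini-Hochberg over 15874 genes), and 12 did not pass. Over all genes tested, 27.5% rose and 29% fell by the same rule, and 56.5% passed in either direction, so that the share of proteasome genes called in each direction (30% and 40%) was near or somewhat above that of the table. By count, the lid of the 19S cap was the group with most falls, and the activators were the group with most rises. As a share, falls were 62.5% in the lid and 66.7% each among the 3 catalytic beta and the 3 other base subunits. The activator rises include Psme2 and its near-identical copy Psme2b. No proteasome gene was called at a fold change of at least 2: the count was 0 in limma, 0 at an unadjusted p under 0.05 and 0 with limma's voom, beside 16.9% of all genes tested, 4.11% as rises and 12.8% as falls. The strongest fall was that of Psmd10 and the strongest rise that of Psme2b, at log2 fold changes of -0.59 and 0.46.

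The changes of the family were small beside those of the table, which is given as a description with no test. The log2 fold changes of the 40 genes had an SD of 0.27, against 0.95 over all genes tested, and a median absolute value of 0.19 against 0.39. They lay within 0.5 of 0 for 39 of the 40 genes (97.5%), and for 59.8% of all genes tested. Among genes averaging 10 FPKM or more, 36 of the 37 proteasome genes (97.3%) and 68.1% of the 5554 genes lay in that range. The 95% intervals of the 40 genes ran from -0.72 at the lowest bound to 0.67 at the highest. FPKM is the number of fragments on a gene divided by its length and by a factor for the library. In the deposited values that factor was 1.03 to 1.05 times the rebuilt reads in the cisplatin libraries and 0.976 to 0.982 times in the control libraries. Fold changes are on the scale of log2(FPKM + 0.1), which understates the change of low genes.

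**Figure D1:**
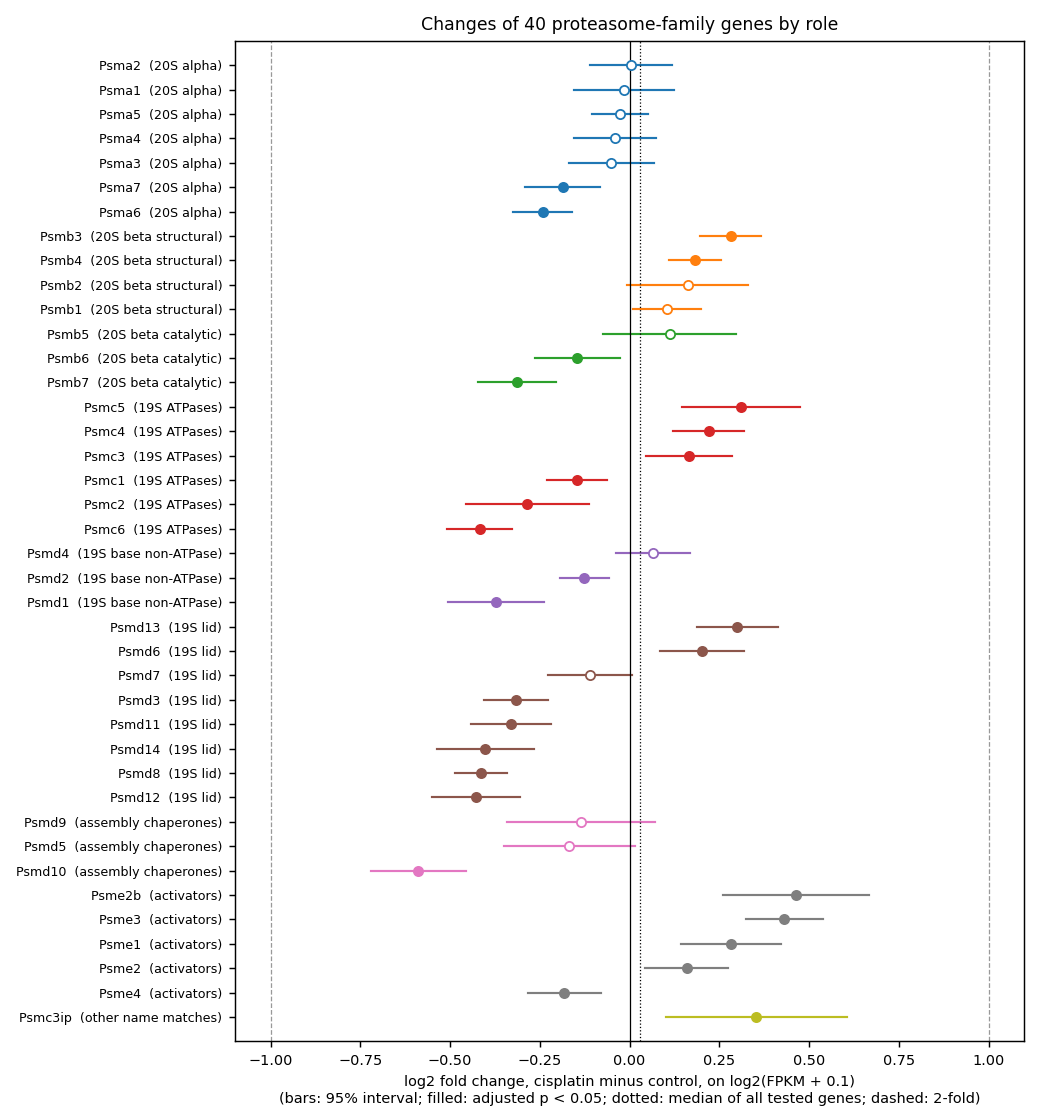
Log2 fold change (cisplatin minus control) of the 40 tested proteasome genes, by role. Points are limma estimates from 3 libraries in each group, bars are 95% intervals, and filled points passed an adjusted p of 0.05. All points lie between the dashed lines of a 2-fold change, with lid genes mostly on the left (median -0.32) and activators mostly on the right (median 0.28).

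The libraries held 30606569 to 32169496 reads on genes, rebuilt from the FPKM values, and the proteasome genes took 3573 to 3638 RPM (reads scaled to the total of the library) in the cisplatin group and 3410 to 3523 RPM in the control group. The libraries differed in the RNA of cell-type markers as well as in treatment. All 26 T-cell marker genes were tested, of which 25 rose and 1 fell, and their summed level was 3132 to 3198 FPKM in the cisplatin group and 1973 to 2097 FPKM in the control group. Of 25 markers of ID8 cells 19 were tested and 16 fell, with a summed level of 262 to 271 FPKM against 1655 to 1735 FPKM. Of these 25, Col3a1 was at 0 in all 6 libraries. All 10 B-cell markers rose, with sums of 3638 to 3711 FPKM against 1700 to 1787 FPKM that go against a label of T cells alone. Most of these sums was Ighm, at 3220 FPKM on average in cisplatin and 1433 FPKM in control. Of 10 tested myeloid markers 7 rose and 2 fell, with sums of 168 to 191 FPKM against 131 to 136 FPKM. The myeloid sums rest largely on Lyz2 (89.7 against 30.8 FPKM on average) and on Mpeg1, which fell (34.3 against 60.1 FPKM). Proteasome genes are used by every cell type, so each value below is that of the mixture, and the part of these marker differences in the results was not tested. In bulk RNA, fewer cells of a type and less RNA per cell cannot be told apart.

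The direction of the smaller changes and of all the rises depended on how the libraries were put on a common scale. The deposited values gave 12 rises and 16 falls, voom on the rebuilt reads gave 16 and 11, FPKM rescaled by the rebuilt reads 15 and 11, and quantile normalization 15 and 13. The median log2 fold change of all genes moved up too, from 0.03 to 0.10, 0.11 and 0.16 in that order. The shares of all genes called under these alternatives are not given here, so the shift is not a result about proteasome genes. With every library set to the same level of T-cell markers (centring), the median log2 fold change of all genes moved from 0.03 to -0.53 and all 40 proteasome genes were lower, 38 of them past the threshold and 0 rising, beside 65.4% of all genes falling, 4.93% rising and 70.3% passing in either direction. The median of the 40 genes minus that of all genes was -0.07 in the deposited values, -0.06 with voom and -0.12 after quantile normalization, and the centring leaves it at -0.07 by construction, since it subtracts the same value from every gene. The words rose and fell below refer to the deposited scale. Of the 16 genes that fell, 10 also fell under every alternative run, namely Psma6, Psmb7, Psmc6, Psmd1, Psmd3, Psmd8, Psmd10, Psmd11, Psmd12 and Psmd14. Of the 12 genes that rose, 9 also rose under every alternative except the centring on T-cell markers, under which each of them was lower: Psmb3, Psmb4, Psmc4, Psmc5, Psmd6, Psmd13, Psme1, Psme2b and Psme3. The centring lowers every gene by 0.56, more than the largest rise (0.46 for Psme2b). Under it no rise could keep its direction and no fall could turn, so it cannot show the falls to be more stable.

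**Figure D2:**
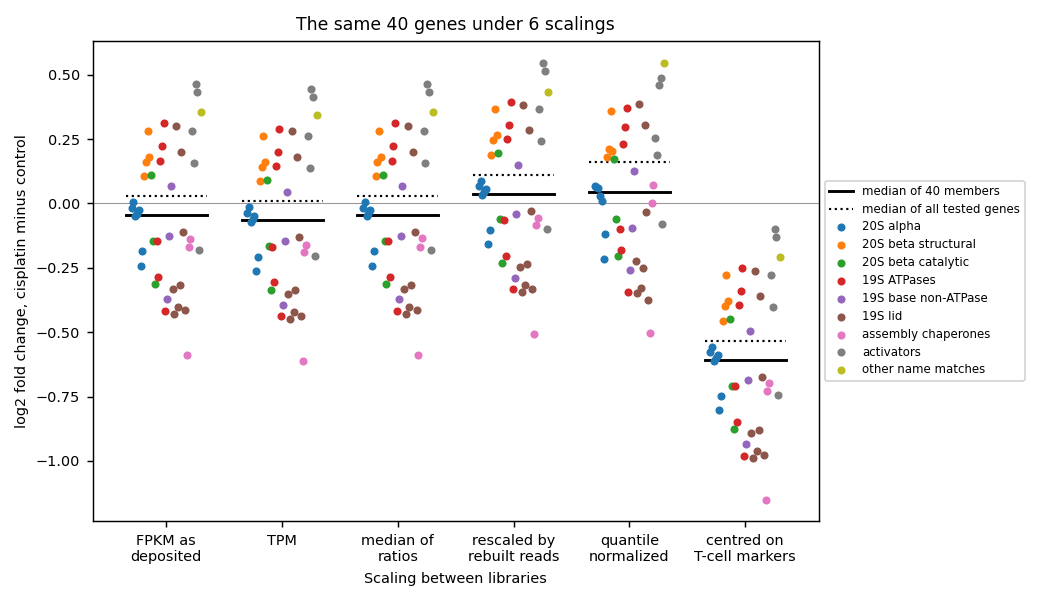
Log2 fold change (cisplatin minus control) of the 40 tested proteasome genes under 6 scalings between libraries. Each point is a gene coloured by role, the solid line is the median of the 40 genes and the dotted line that of all genes tested. Centring on the T-cell markers shifts the median of all genes from 0.03 to -0.53.

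Levels differed more between the genes than between the groups. Among the 40 tested genes the mean over the 6 libraries ran from 2.63 FPKM for Psmc3ip to 125 FPKM for Psme1, with a median of 31.9 FPKM, and 30 of them lay in the top 20 percent of all genes tested. Apart from the activators, the highest level was that of Psma6 (76.6 FPKM), followed by Psmb4 (66.2 FPKM) and Psmd2 (54.6 FPKM). The chaperones Psmd5 and Psmd9 were the lowest of the tested genes after Psmc3ip, at 5.50 and 2.89 FPKM. The libraries of the groups did not overlap for a part of the genes: 13 were higher and 18 lower in all 3 cisplatin libraries, where 31.9% and 32.3% of all genes tested were so, and 64.2% in either direction.

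**Figure D3:**
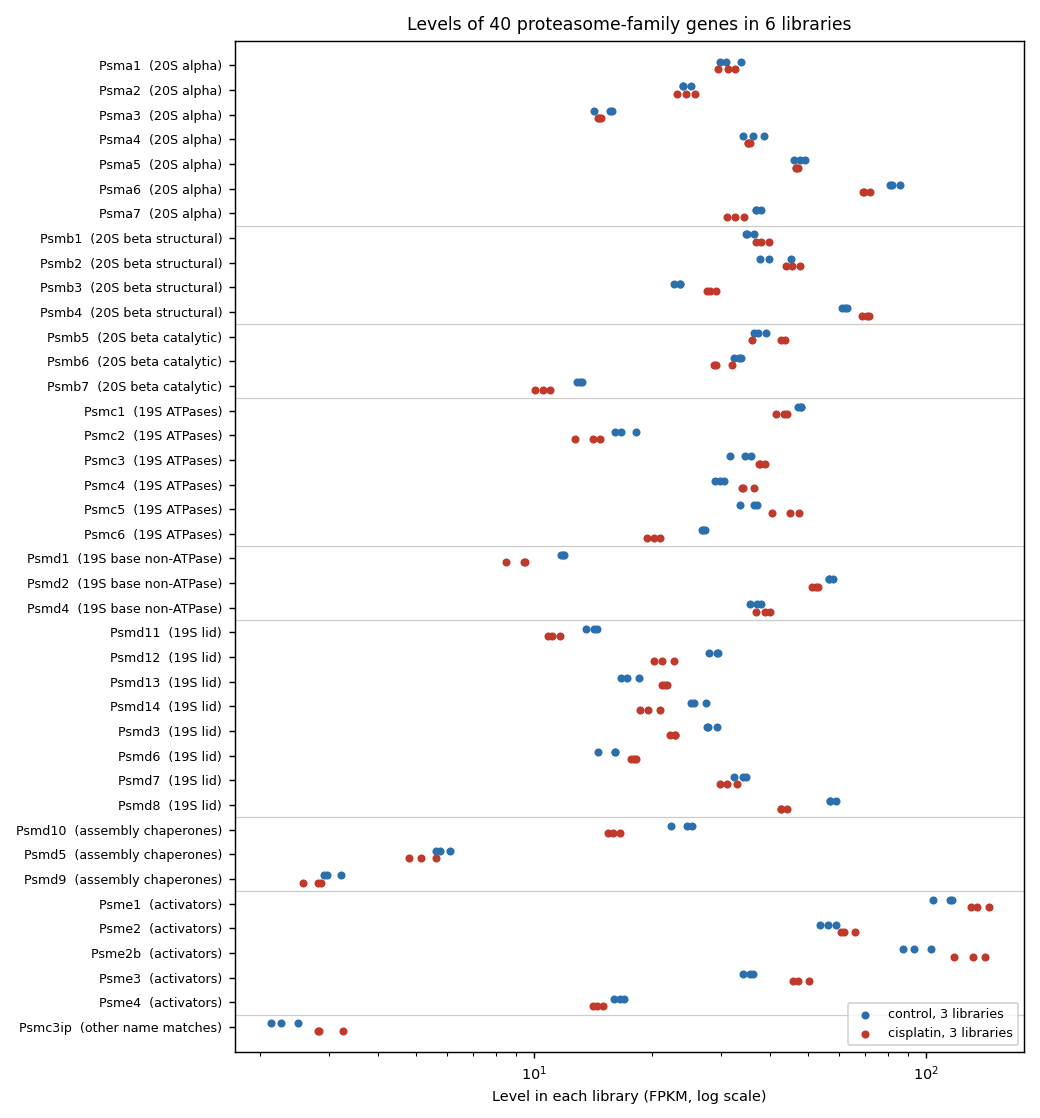
Level in FPKM (log scale) of the 40 tested proteasome genes in each of the 3 control and 3 cisplatin libraries, grouped by role. Each point is a library. Most genes sit between 10 and 100 FPKM, and the libraries of the groups stand apart for genes such as Psmd8 (43.2 against 57.6 FPKM on average) and Psme3 (47.7 against 35.3 FPKM).

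The alpha subunits form the outer rings of the core, and 2 of the 7 tested fell while 5 did not pass, with a median log2 fold change of -0.04. Psma6 was at 81.2, 85.9 and 81.8 FPKM in the control libraries and at 71.9, 69.6 and 69.0 FPKM in the cisplatin libraries. All cisplatin libraries lay below all control libraries. The log2 fold change of Psma6 was -0.24 ± 0.03 (SE, n = 3 and 3, adjusted p = 0.00102, limma). Psma7 fell from 37.2 ± 0.69 to 32.7 ± 1.63 FPKM (SD, n = 3), a log2 fold change of -0.19 (adjusted p = 0.00945), and was not called with voom or on the rescaled FPKM. The other alpha subunits, Psma1, Psma2, Psma3, Psma4 and Psma5, had overlapping libraries and log2 fold changes of -0.05 to 0.01. Their sign was not fixed by the data: Psma1, Psma3, Psma4 and Psma5 turned positive with voom and after quantile normalization, and Psma2 turned negative as TPM. Leaving out single libraries turned the sign of Psma1 (0.02 without cisplatin 3 and 0.03 without control 3), of Psma2 (-0.03 without cisplatin 2, -0.0043 without control 1 and -0.0067 without control 2) and of Psma4 (0.0058 without control 3). The 95% interval of Psma2 was -0.11 to 0.12. Psma8, the testis-specific alpha subunit, had 7 reads in each of cisplatin 1 and control 2 and 0 in the other libraries, and was not tested.

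The structural beta subunits complete the inner rings without an active site, and all 4 had positive values, of which 2 passed. Psmb3 was at 23.5, 22.7 and 23.6 FPKM in control and at 27.7, 29.2 and 28.2 FPKM in cisplatin, with no overlap. It rose by 0.28 ± 0.04 on the log2 scale (SE, n = 3 and 3, adjusted p = 5.6e-04). Psmb4, the most abundant of the constitutive beta subunits, rose from 62.0 ± 1.02 to 70.4 ± 1.57 FPKM (SD, n = 3), or 1.13-fold (adjusted p = 0.00211). Psmb1 and Psmb2 did not pass, at 0.11 (adjusted p = 0.0587) and 0.16 (adjusted p = 0.0909). Whether they passed depended on the setting. Both passed after quantile normalization and over protein-coding genes alone, and Psmb1 also with a minimum mean of 5 FPKM. With single libraries left out, Psmb1 passed without cisplatin 2 (0.13, adjusted p = 0.0427), and Psmb2 passed without control 3 (0.24, adjusted p = 0.00991), in which it stood at 45.2 FPKM against 39.9 and 37.7 FPKM in the other control libraries. With voom all 4 passed as rises, and centred on the T-cell markers the values of all 4 were negative, at -0.46 to -0.28.

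Of the 3 catalytic beta subunits, 2 fell and 1 did not pass. Psmb7, the trypsin-like subunit (chr2:38588036-38644087, mm10), stood at 12.9, 13.3 and 13.1 FPKM in the control libraries and at 10.1, 11.0 and 10.5 FPKM in the cisplatin libraries. The groups did not overlap, and Psmb7 fell by 0.31 ± 0.05 on the log2 scale (SE, n = 3 and 3, adjusted p = 0.00112). Psmb6, the caspase-like subunit, was at 33.3, 32.4 and 33.7 FPKM in control and at 32.1, 29.1 and 28.8 FPKM in cisplatin. Its fall of 0.15 was barely past the threshold (adjusted p = 0.0413). It was not called without cisplatin 2 (-0.12, adjusted p = 0.12), cisplatin 3 (-0.12), control 1 (-0.14), control 2 (-0.16) or control 3 (-0.13), nor with voom or after quantile normalization. Psmb5, the chymotrypsin-like subunit, was at 36.5, 37.2 and 39.1 FPKM in control and at 42.8, 43.6 and 35.9 FPKM in cisplatin. Cisplatin 3 lay below all other libraries, and cisplatin 1 and 2 above, and the log2 fold change was 0.11 with a 95% interval of -0.07 to 0.30 (adjusted p = 0.263). Psmb5 passed as a rise with voom, and without cisplatin 3 (0.20, adjusted p = 0.0107). Psmb11, the beta subunit of the thymoproteasome, had 2 reads in control 1 and 0 in the other 5 libraries, below the floor of 3 reads, and was not tested.

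The inducible counterparts of these subunits gave a reference within the same barrel. Psmb10, which replaces Psmb7, was at 69.7, 75.0 and 71.3 FPKM in the control libraries and at 97.3, 93.1 and 94.3 FPKM in the cisplatin libraries, and rose by 0.40 ± 0.04 on the log2 scale (SE, n = 3 and 3, adjusted p = 1.3e-04). Psmb8, which replaces Psmb5, rose from 73.1 ± 5.06 to 91.3 ± 2.54 FPKM (adjusted p = 0.0024). Psmb9, which replaces Psmb6, did not pass (0.06, adjusted p = 0.148), but passed as a rise with voom (0.15, adjusted p = 0.00106) and on the rescaled FPKM (0.15, adjusted p = 0.00978). In its transcripts, 6.73% of the 100-base windows also occur in Tap1 on the other strand. Tap1 averaged 129 FPKM against 62.5 FPKM for Psmb9, so the level of Psmb9 is uncertain by an amount that was not measured. Centred on the T-cell markers, all 3 were negative, at -0.16 for Psmb10, -0.24 for Psmb8 and -0.50 for Psmb9. The ratio of an inducible subunit to its counterpart within a library does not change when each library is scaled by a single factor. Psmb10 over Psmb7 was 5.40, 5.65 and 5.44 in control and 9.65, 8.47 and 8.96 in cisplatin, so that all cisplatin libraries lay above all control libraries, on average 1.64-fold. Psmb8 over Psmb5 was 1.94 ± 0.09 in control and 2.26 ± 0.27 in cisplatin, and Psmb9 over Psmb6 was 1.85 ± 0.02 and 2.14 ± 0.12 (SD, n = 3), again without overlap. Each of these 3 ratios gave, by exact permutation (two-sided), p = 0.1 (adjusted p = 0.12 over 6 ratios), which is the smallest p that 3 against 3 libraries can give. For Psmb10 over Psmb7 that p was fixed in advance, because Psmb10 was higher and Psmb7 lower in every cisplatin library, so it adds no support.

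**Figure D4:**
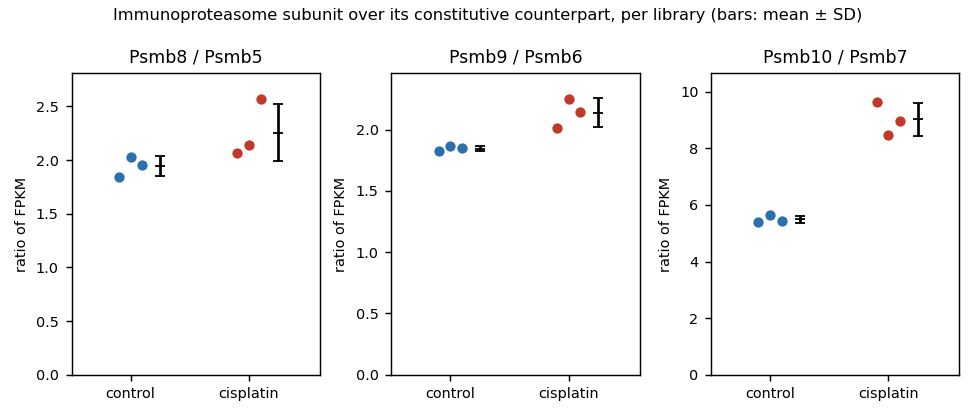
Ratio of FPKM of each inducible catalytic subunit to its constitutive counterpart in the 3 control and 3 cisplatin libraries, with mean ± SD beside the points. Every cisplatin library lies above every control library in the 3 panels, and Psmb10 over Psmb7 shows the widest gap (5.50 against 9.03 on average).

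The 6 ATPases form a ring that unfolds the substrate and feeds it into the core. They all passed the test and split evenly, with 3 rises and 3 falls and a median of 0.01. Psmc6 (chr14:45329788-45349705, mm10) was at 26.8, 27.0 and 27.3 FPKM in the control libraries and at 20.2, 19.5 and 20.99 FPKM in the cisplatin libraries, and fell by 0.42 ± 0.04 on the log2 scale (SE, n = 3 and 3, adjusted p = 1.1e-04). Psmc5 was at 33.5, 37.1 and 36.5 FPKM in control and at 40.5, 45.1 and 47.4 FPKM in cisplatin, and rose by 0.31 ± 0.07 (adjusted p = 0.0078). The libraries did not overlap for either gene, and the products of both sit in the same ring. Psmc2 fell by 0.29 and Psmc1 by 0.15, and Psmc4 rose by 0.22 and Psmc3 by 0.17. Some of these calls were not stable. Psmc2 was not called after quantile normalization (-0.18), Psmc1 not with voom (-0.06), and Psmc3 not as TPM and not without cisplatin 1 (0.17), cisplatin 2 (0.15), cisplatin 3 (0.18) or control 2 (0.18, adjusted p = 0.0529). The 3 that rose were lower after centring on the T-cell markers, at -0.40 for Psmc3, -0.34 for Psmc4 and -0.25 for Psmc5.

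Among the other base subunits that the name rule took, Psmd1 and Psmd2 fell and Psmd4 did not pass. Psmd1, a large scaffold subunit (chr1:86064387-86139151, mm10), was at 11.9, 11.7 and 11.9 FPKM in the control libraries and at 8.46, 9.49 and 9.42 FPKM in the cisplatin libraries, with no overlap. Its log2 fold change was -0.37 ± 0.06 (SE, n = 3 and 3, adjusted p = 0.00128). Psmd2, on which shuttle proteins dock, fell by 0.13 (adjusted p = 0.00852) and was not called with voom (-0.04). Psmd4, a ubiquitin receptor of the cap, was at 36.9 ± 1.19 FPKM in control and 38.6 ± 1.57 FPKM in cisplatin, with overlapping libraries and a 95% interval of the log2 fold change of -0.04 to 0.17, and passed as a rise with voom.

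The lid removes the ubiquitin chain before the substrate enters. Of the 8 lid subunits that the name rule took, 5 fell and 2 rose, and the median of -0.32 was the lowest of the roles. Psmd12 (chr11:107479484-107504362, mm10) was at 29.4, 27.9 and 29.3 FPKM in the control libraries and at 22.8, 21.3 and 20.3 FPKM in the cisplatin libraries. Psmd8 (chr7:29174188-29180701, mm10) was at 57.0, 57.1 and 58.9 FPKM in control and at 44.2, 42.7 and 42.7 FPKM in cisplatin. Psmd14, the deubiquitinating enzyme of the lid (chr2:61711694-61800376, mm10), was at 27.4, 25.2 and 25.6 FPKM in control and at 18.7, 20.99 and 19.5 FPKM in cisplatin. For each of these 3 genes all cisplatin libraries lay below all control libraries, and the control mean was 1.35-fold, 1.33-fold and 1.32-fold the cisplatin mean. The log2 fold changes were -0.43 ± 0.05, -0.42 ± 0.03 and -0.40 ± 0.06 (SE, n = 3 and 3), with adjusted p-values of 4.4e-04, 3.8e-05 and 9.2e-04 in limma. Psmd3 and Psmd11, the other 2 of these 8 genes that fell, lay at -0.32 and -0.33. Against the rest of the lid, Psmd13 rose from 17.5 ± 0.96 to 21.5 ± 0.31 FPKM and Psmd6 from 15.6 ± 0.86 to 17.9 ± 0.27 FPKM (SD, n = 3), with adjusted p-values of 0.00164 and 0.0117. Both were lower after centring on the T-cell markers (-0.26 and -0.36), and 8.86% of the 100-base windows of Psmd13 also occur in Sirt3 on the other strand. Psmd7, the partner of Psmd14, did not pass (-0.11, adjusted p = 0.0945), and passed without cisplatin 2 (-0.15, adjusted p = 0.0386).

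The balance between the parts of the particle followed from these values. The mean log2 level of the lid genes minus that of the core genes was -0.41 ± 0.03 in control and -0.59 ± 0.03 in cisplatin (SD, n = 3), and ran from -0.43 to -0.38 and from -0.61 to -0.56, without overlap. The same difference between lid and ATPases was -0.27 ± 0.02 and -0.44 ± 0.05. Beta minus alpha genes went from -0.12 ± 0.02 to 0.01 ± 0.01. These are differences within a library, so scaling each library by a single factor does not change them, and they were not tested.

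The chaperones Psmd5, Psmd9 and Psmd10 bind the ATPases while the cap is assembled and leave the finished particle. Psmd10 (gankyrin, chrX:140948429-140956728, mm10) was at 22.4, 25.3 and 24.6 FPKM in the control libraries and at 16.5, 15.9 and 15.5 FPKM in the cisplatin libraries. All 3 cisplatin libraries lay well below the lowest control library, and the control mean was 1.51-fold the cisplatin mean. It fell by 0.59 ± 0.06 on the log2 scale (SE, n = 3 and 3, adjusted p = 1.3e-04), and by 1.15 after centring on the T-cell markers, where it alone of the 40 genes passed a fold change of 2. Psmd5 and Psmd9 had lower values in all 3 cisplatin libraries too, but did not pass (-0.17, adjusted p = 0.103, and -0.14, adjusted p = 0.221). Psmd5 passed without cisplatin 3 (-0.23, adjusted p = 0.0478), and after quantile normalization Psmd5 and Psmd9 were at 0.0013 and 0.07.

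The activators open the core without ATP, and of the 5 genes 4 rose and 1 fell. Psme1 (chr14:55578123-55581529, mm10), the alpha subunit of the PA28 ring and the highest of all 42 genes, was at 105, 117 and 116 FPKM in the control libraries and at 130, 145 and 135 FPKM in the cisplatin libraries. It rose by 0.28 ± 0.06 on the log2 scale (SE, n = 3 and 3, adjusted p = 0.00572). Psme3, which forms the nuclear PA28 ring (chr11:101316213-101323537, mm10), was at 35.6, 36.3 and 34.2 FPKM in control and at 45.7, 50.2 and 47.2 FPKM in cisplatin. The libraries of the groups were far apart for Psme3, which rose by 0.43 ± 0.04 (adjusted p = 2.2e-04). Psme4, the single-chain activator PA200 (chr11:30771726-30880361, mm10), moved the other way, from 16.5 ± 0.51 to 14.5 ± 0.43 FPKM (SD, n = 3), and fell by 0.18 (adjusted p = 0.00957). It was not called with voom, on the rescaled FPKM or after quantile normalization. Within libraries, Psme3 over Psme4 was 2.14 ± 0.11 in control and 3.29 ± 0.25 in cisplatin, and Psme1 over Psme4 was 6.82 ± 0.60 and 9.41 ± 0.78. Both were without overlap (exact permutation p = 0.1 each, adjusted p = 0.12). That outcome was fixed in advance, because Psme3 and Psme1 were higher and Psme4 lower in every cisplatin library. These p-values therefore add no support to the calls of the single genes. Psme1 over Psme2 overlapped, at 1.996 ± 0.14 and 2.18 ± 0.20 (exact permutation p = 0.3, adjusted p = 0.3). After centring on the T-cell markers the 4 that rose were at -0.40 (Psme2), -0.28 (Psme1), -0.13 (Psme3) and -0.10 (Psme2b).

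Psme2 and Psme2b need to be read together, because their reads are hard to tell apart. Psme2 (chr14:55587441-55591113, mm10) encodes the beta subunit of PA28 in 11 exons, and Psme2b (chr11:48945354-48946190, mm10) is a copy of it in 1 exon that lies within 9930111J21Rik1 and Gm12185 on the same strand. The coding sequences have 717 bases each and differ at 5 of them (99.3% identity). A stretch of 120 coding bases of both genes (bases 424 to 543 of the coding sequence, GENCODE M21 on GRCm38, minus strand) is printed to show how alike they are. For Psme2 it lies in chr14:55588049-55588449 across introns and for Psme2b in chr11:48945576-48945695. Capitals mark the 3 bases at which they differ, and reads that cover none of them match both genes:
Psme2: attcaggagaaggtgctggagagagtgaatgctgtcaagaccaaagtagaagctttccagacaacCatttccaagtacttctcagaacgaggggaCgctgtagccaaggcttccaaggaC
Psme2b: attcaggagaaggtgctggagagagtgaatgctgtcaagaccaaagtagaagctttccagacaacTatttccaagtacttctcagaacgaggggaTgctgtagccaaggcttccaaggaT

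The authors' handling of reads that match several genes is not given in the sources used here, so the level of each gene of the pair is uncertain, and 40.3% of the 100-base windows of Psme2 and 52.0% of those of Psme2b occur in the other. Psme2b was at 87.4, 93.4 and 103 FPKM in the control libraries and at 118, 142 and 132 FPKM in the cisplatin libraries, and rose by 0.46 ± 0.08 (SE, n = 3 and 3, adjusted p = 0.00333). Psme2 was at 56.1, 59.1 and 53.8 FPKM in control and at 65.9, 60.9 and 61.9 FPKM in cisplatin, and rose by 0.16 (adjusted p = 0.0275). The rise of Psme2 was lost as TPM and without cisplatin 1 (0.12, adjusted p = 0.0787), cisplatin 3 (0.17), control 1 (0.16) or control 3 (0.13). The sum of both was 144, 153 and 157 FPKM in control and 184, 203 and 194 FPKM in cisplatin, 1.28-fold higher on average with no overlap (exact permutation p = 0.1, the smallest possible). Each gene alone was already higher in every cisplatin library, so this p was fixed in advance and adds no support.

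The name rule also took Psmc3ip, which is a partner of recombination enzymes and no proteasome subunit. It was at 2.13, 2.49 and 2.26 FPKM in the control libraries and at 2.82, 3.25 and 2.80 FPKM in the cisplatin libraries, on 116 to 196 reads, and rose by 0.35 (adjusted p = 0.0259). It was not called without cisplatin 2 (0.29), control 1 (0.30) or control 3 (0.34), and 24.0% of the 100-base windows of its transcripts occur in Mlx on the other strand. Other proteasome genes that share 100-base windows with another gene were Psma5 (27.5%), Psmb5 (22.2%), Psma3 (20%), Psmb7 (19.98%, with Nek6 on the other strand) and Psmb3 (18.0%). Smaller shares, of at most 7.17% (Psmd11), were found for Psma2, Psma4, Psmc1, Psmc3, Psmd1, Psmd2 and Psme1. The levels of all these genes are uncertain by an amount that was not measured. The share of windows sets no bound on it, because the level of the other gene and the counting of shared reads matter too. For example, Mlx averaged 12.1 FPKM, above Psmc3ip, while Slc39a13, which shares windows with Psmc3, averaged 4.76 FPKM against 36.1 FPKM for Psmc3.

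Larger changes stood among the other genes of the ubiquitin-proteasome pathway. Of 38 genes on a list of inducible subunits, assembly factors, associated proteins, transcription factors, and ubiquitin and shuttle genes, 7 rose, 18 fell and 13 did not pass, with a median of -0.10, beside the 27.5% and 29% of all genes. The class of associated and regulatory proteins on the list held 8 falls among 11 genes and 0 rises (0 at an unadjusted p under 0.05 and 1 with voom). Ecpas, an adaptor that holds core and cap together, was at 42.3, 41.6 and 42.3 FPKM in control and at 15.3, 14.8 and 14.8 FPKM in cisplatin, a log2 fold change of -1.48 ± 0.03 (SE, n = 3 and 3, adjusted p = 1.9e-07). Rad23b, which carries ubiquitinated proteins to the proteasome, was at 106, 111 and 107 FPKM in control and at 32.1, 35.0 and 31.5 FPKM in cisplatin, a log2 fold change of -1.72 ± 0.05 (adjusted p = 4.7e-07). These were the 2 genes of the list past a fold change of 2. Zfand5, which stimulates the proteasome, followed at -0.96.

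Nfe2l1, the transcription factor that raises proteasome genes when proteasome activity is low, was at 50.2, 55.4 and 50.1 FPKM in the control libraries and at 30.3, 29.3 and 29.9 FPKM in the cisplatin libraries. It fell by 0.79 ± 0.05 on the log2 scale (SE, n = 3 and 3, adjusted p = 1.3e-05). Nfe2l2, a related factor of the oxidative stress response, fell by 0.62, and Ddi2, the protease that activates Nfe2l1, rose by 0.13 (adjusted p = 0.0476). The call of Ddi2 was lost without any of cisplatin 2 (0.11), cisplatin 3 (0.11), control 1 (0.13), control 2 (0.11) or control 3 (0.14). Among 6 assembly factors, Psmg2, Psmg4 and Pomp rose, at 0.43, 0.25 and 0.18, and Akirin2, which brings proteasomes into the nucleus, fell by 0.21. These rises were unstable: Psmg2 was not called without cisplatin 1 (0.39), cisplatin 3 (0.41) or control 3 (0.44), Psmg4 not without cisplatin 2 (0.24), cisplatin 3 (0.21) or control 3 (0.19), and Pomp not without cisplatin 1 (0.20), cisplatin 2 (0.12), control 1 (0.16), control 2 (0.19) or control 3 (0.20). Akirin2 was not called with voom (-0.13). Of the 14 ubiquitin and shuttle genes 7 fell, while Ubqln4 rose by 0.28. The ubiquitin gene Rps27a ran from 63.0 to 236 FPKM within the control group and gave no readable change. The count of rises on the whole list was 13 with voom, 11 after quantile normalization, and 4 without cisplatin 2 or cisplatin 3. The shares of all genes called under these settings are not given here.

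**Figure D5:**
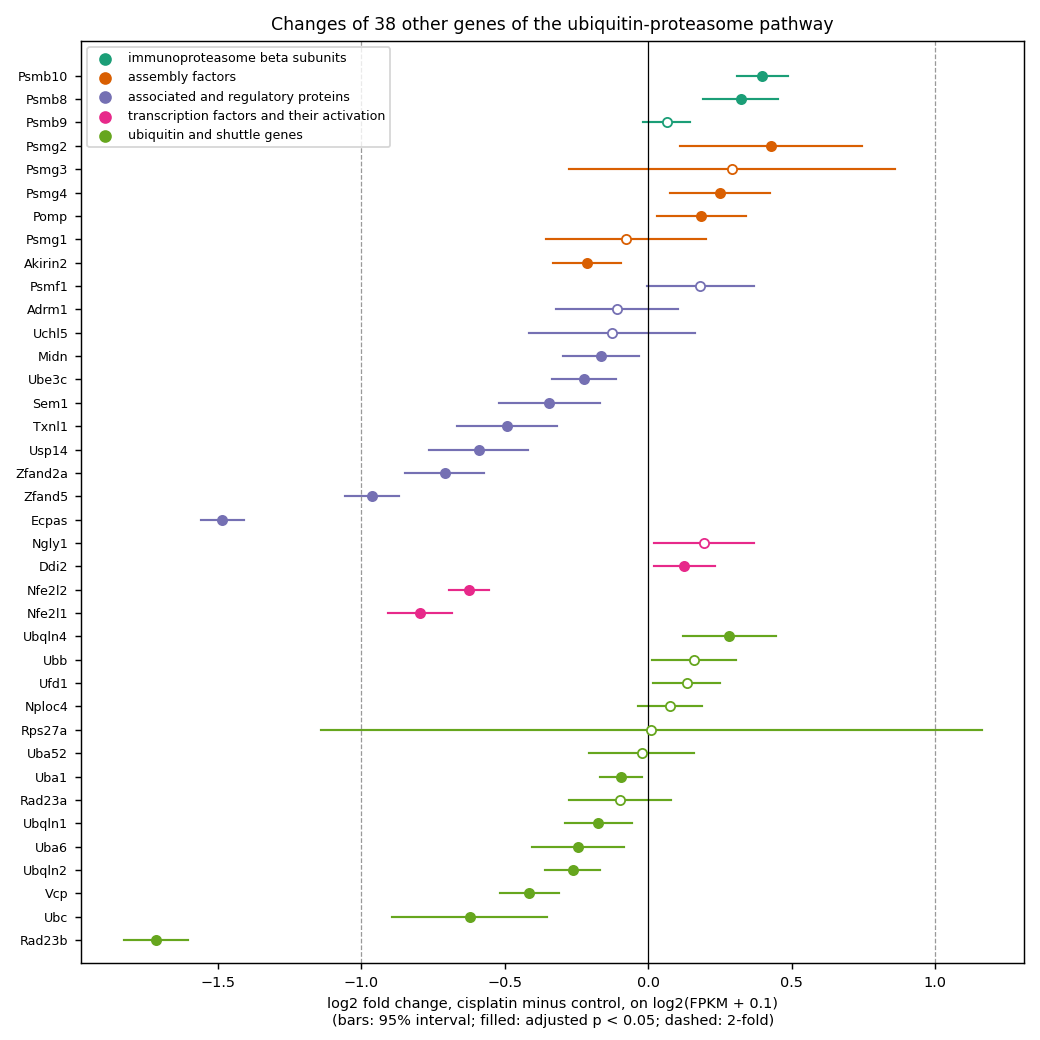
Log2 fold change (cisplatin minus control) of 38 other genes of the ubiquitin-proteasome pathway, by class. Points are limma estimates from 3 libraries in each group, bars are 95% intervals, and filled points passed an adjusted p of 0.05. Rad23b (-1.72) and Ecpas (-1.48) lie left of the dashed line of a 2-fold fall, while the inducible subunits lie right of 0.

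The promoters of the proteasome genes were searched for the core of the antioxidant response element, TGACNNNGC (GCNNNGTCA on the other strand), the kind of site that Nfe2l1 and Nfe2l2 bind. RefSeq promoters on GRCm38.p6 matched 35 of the 42 genes, and the 250 bases before each start were used. The letters occurred in 5 of the 35 (14.3%) and in 11.5% of 27025 genes. The 5 genes were Psmb5, Psmb6, Psmc6, Psmd9 and Psmd12, whose log2 fold changes given above ran from -0.43 to 0.11. Of these, 3 passed the threshold, all as falls, where 29% of all genes tested fell and 56.5% passed in either direction. The call of Psmb6 was unstable, as given above, and a link between the motif and these changes was not tested. The CCAAT box, which reads ATTGG on the other strand, occurred in 14 of the 35 (40.0%) and in 37.5% of all genes, and TGACGTCA, which overlaps the first motif by TGAC, in 0 of the 35 and in 1.77% of all genes. A match is a description of the letters and no evidence of binding. The upstream sequences are shown for the catalytic genes and for the pair with the largest falls of the 5, with the first motif in capitals. They lie at chr14:54617996-54618245 (minus strand, Psmb5), chr11:70525107-70525356 (plus, Psmb6), chr14:45329574-45329823 (plus, Psmc6) and chr11:107479278-107479527 (plus, Psmd12):
Psmb5: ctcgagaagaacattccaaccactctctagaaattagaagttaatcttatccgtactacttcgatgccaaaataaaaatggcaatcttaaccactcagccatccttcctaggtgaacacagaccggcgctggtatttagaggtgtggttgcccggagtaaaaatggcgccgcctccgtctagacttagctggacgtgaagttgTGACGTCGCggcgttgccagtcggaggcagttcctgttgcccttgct
Psmb6: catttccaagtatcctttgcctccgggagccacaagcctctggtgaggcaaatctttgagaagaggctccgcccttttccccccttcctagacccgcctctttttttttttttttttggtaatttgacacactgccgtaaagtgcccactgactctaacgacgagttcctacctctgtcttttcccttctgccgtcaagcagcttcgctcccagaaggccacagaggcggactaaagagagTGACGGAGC
Psmc6: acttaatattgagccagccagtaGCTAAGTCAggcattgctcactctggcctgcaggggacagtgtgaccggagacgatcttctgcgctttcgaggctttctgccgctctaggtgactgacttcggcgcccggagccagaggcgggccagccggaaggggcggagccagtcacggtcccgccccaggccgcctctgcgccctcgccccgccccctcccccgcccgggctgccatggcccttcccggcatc
Psmd12: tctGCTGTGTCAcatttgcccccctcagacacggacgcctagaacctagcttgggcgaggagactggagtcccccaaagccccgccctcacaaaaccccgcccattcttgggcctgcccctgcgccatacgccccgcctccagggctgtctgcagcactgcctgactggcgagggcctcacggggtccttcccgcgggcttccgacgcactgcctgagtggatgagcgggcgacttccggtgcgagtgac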

How the data were processed

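RNA of T cells was sequenced from 3 cisplatin and 3 control libraries. The authors deposited FPKM per gene, that is counts divided by gene length and a library factor. The paper names LifeScope as the aligner and counter, while the submitters' processing notes list fastp, HISAT2 2.0.5, featureCounts 1.5.0-p3 and mm10. The strand setting and the handling of reads matching several genes are not given in the sources used here. The authors tested raw counts with DESeq2; those results were not used. Groups and replicate numbers came from the sample labels, and the table held 0 columns of other samples. Gene coordinates equalled GENCODE M21 (GRCm38) for 41 of the 42 genes.

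Tests used limma 3.58.1 (R 4.3.3; lmFit, eBayes with trend) on log2(FPKM + 0.1) over 15874 genes averaging 0.5 FPKM or more, two-sided, with Benjamini-Hochberg adjustment over all of them. In every library 100% of the values above 0 were whole multiples of the worth of a read, within 0.1 read, so reads were rebuilt; they set the depth and a floor of 3 reads, cover counting error only, and were tested with limma's voom (at least 10 reads in at least 3 libraries). The authors' library factor divided by the rebuilt reads was 1.03 to 1.05 in the cisplatin and 0.976 to 0.982 in the control libraries. No pair of replicate libraries was alike within counting noise (their chi-square per degree of freedom ran from 5.36 to 6.44). The steps were tested on simulated data.

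The members and all lists were chosen with earlier results of these data known, so no list is given a test. Genes were named by rule: all genes not tested, the 3 largest and 2 smallest changes of each role, the catalytic subunits and activators, members whose direction turned under another scaling, and, of the pathway list, the inducible subunits, genes past a fold change of 2 and the largest change of each class. Psmd3, Psmd11, Zfand5, Nfe2l2, Ddi2, Psmg4, Pomp, Akirin2, Ubqln4 and Rps27a fell outside the rule and were named after their values were seen. Alternatives were pseudocounts of 1 and 0.01, a minimum mean of 5 FPKM or no filter, median-of-ratios, quantile and TPM scaling, centring on 26 T-cell markers, no variance trend, protein-coding genes alone, voom, each library left out and a replicate block; FPKM rescaled by the rebuilt reads was added after the data were seen. Median-of-ratios scaling returned the fold changes of the deposited values almost unchanged (Psma1 at -0.0165 under both), so it adds little as an alternative. Sequences came from GENCODE M21 and RefSeq. Tables were handled in pandas 2.3.3 and numpy 2.4.6, and figures drawn with matplotlib 3.10.9, under python 3.11.15.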

Additional observations from a re-analysis of the deposited data

How the results depend on the processing

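The counts of proteasome genes that rose, fell or passed a fold change of 2 moved by less than 1.5 times under all alternatives except centring on the T-cell markers, which gave 0 rises, 38 falls and 1 gene past 2-fold; there the median of the 40 genes was -0.61, with -0.60 for alpha, -0.39 for structural beta and -0.71 for catalytic beta subunits, -0.55 for ATPases, -0.69 for other base subunits, -0.89 for the lid, -0.73 for chaperones and -0.28 for activators, and the pathway list had 0 rises and 35 falls. The centring subtracts the mean rise of the markers from every gene. With voom, and with FPKM rescaled by the rebuilt reads, the medians were 0.038 over the 40 genes, 0.043 and 0.044 for alpha, 0.26 for structural beta, -0.063 and -0.062 for catalytic beta subunits, 0.093 for ATPases, -0.042 for other base subunits, -0.24 for the lid and 0.37 for activators, with 13 rises on the pathway list. Quantile normalization gave 0.043 for the 40 genes, -0.062 for catalytic subunits, 0.066 for ATPases, -0.24 for the lid and 0.0013 for chaperones, with 11 rises on the pathway list. The chaperone median was -0.38 with a minimum mean of 5 FPKM, where fewer chaperones were tested. Rises on the pathway list numbered 4 without a filter on low values, 3 without the variance trend and 4 to 7 when each library was left out. The cause was not tested. Apart from the centring, the shares of all genes called under the alternatives are not given.

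Signs turned for single genes. Centred on T-cell markers, the values that turned negative were those of Psma2 (-0.56), Psmb1 (-0.46), Psmb2 (-0.40), Psmb3 (-0.28), Psmb4 (-0.38), Psmb5 (-0.45), Psmc3 (-0.40), Psmc4 (-0.34), Psmc5 (-0.25), Psmd4 (-0.50), Psmd6 (-0.36), Psmd13 (-0.26), Psme1 (-0.28), Psme2 (-0.40), Psme2b (-0.10), Psme3 (-0.13), Psmc3ip (-0.21), Psmb8 (-0.24), Psmb9 (-0.50), Psmb10 (-0.16), Ddi2 (-0.44), Pomp (-0.38), Psmg2 (-0.13), Psmg4 (-0.31) and Ubqln4 (-0.28). Quantile normalization turned Psma1 (0.066), Psma3 (0.058), Psma4 (0.029), Psma5 (0.0088), Psmd5 (0.0013) and Psmd9 (0.073). Voom and the rescaled FPKM turned Psma1 (0.067), Psma3 (0.032), Psma4 (0.043 and 0.044) and Psma5 (0.056), and TPM turned Psma2 (-0.015). With each library left out, Psma1 ran from -0.054 to 0.034, Psma2 from -0.034 to 0.043 and Psma4 from -0.082 to 0.0058; the cause was not tested. Same-numbered libraries did not deviate together (correlations of 0.02, -0.06 and -0.02). The labels do not say whether they share a mouse or culture, and such correlations cannot exclude a weak pairing. With the replicate block, 12 proteasome genes rose and 17 fell, and Ddi2 and Pomp were not called (adjusted p = 0.0799 and 0.0628 from limma). The depth of over 30606569 reads limits only Psma8 and Psmb11, with at most 7 reads in a library, and 3 libraries a group limit the exact tests to p = 0.1.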
